A study of Mustela putorius furo with 8 samples.

Results

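The 9 genes described here are ligands of the TGF-beta family, proteins of the families that store or free these ligands, and genes that TGF-beta is known to induce early: TGFB1, TGFB2, INHBA, LTBP2, THBS1, TGFBI, CCN1, CCN2 and SKIL. They were found by gene symbol among the 27912 genes of the deposited matrices. All 9 were among the 15921 genes with at least 30 unique molecular identifiers (UMIs, each standing for 1 captured RNA molecule) over the 8 libraries, and their UMIs ranged from 319 for THBS1 to 395906 for CCN2. Pancreatic ductal epithelial (PDE) cells were cultured from pancreata of newborn ferrets aged 1 to 3 days, either WT or CFTR KO/KO (CF), in which the chloride and bicarbonate channel CFTR is knocked out. The cells of both genotypes had been taken through 10 passages and polarized on coated permeable supports at an air-liquid interface (ALI). Single-cell RNA libraries were made on day 2, 5, 7 and 9, with cells of several donors pooled and 1 library for each genotype and day, so no value below has a replicate error and no test between genotypes was run. The study describes no separate donor pool for each day. A difference seen on all 4 days is therefore not replicated over independent donors. Intervals are 95% intervals and cover counting error only.

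TGF-beta ligands are secreted as latent complexes that are stored in the matrix and must be freed by integrins, proteases or thrombospondin before they can act. The active ligands bind receptor kinases that phosphorylate SMAD proteins, which enter the nucleus and switch on target genes, some of which restrain the signal. In the pancreas the pathway limits the growth of duct epithelium and drives matrix production by stellate cells, and several of its targets also answer to the mechanosensitive regulators YAP and TAZ.

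The libraries held 1607 to 6224 retained cells and 34735952 to 114585136 UMIs, with medians of 14949 to 23427 UMIs per cell. The CF day 7 library was the smallest and the most uneven, with 411 of its 1607 cells under 3000 UMIs. Any pair of libraries shared at most 0.4% of the cell barcodes of the smaller. The duct keratin KRT19 was at 3772 to 5113 counts per 1000000 UMIs of a library (CPM), while summed markers of endothelial cells, endocrine cells and acinar enzymes reached at most 0.259 CPM in any library, the last from only 2 of 7 genes that are in the matrices. Immune markers summed to 5.33 to 24.3 CPM, nearly all of it CD68 and CD14, with the defining marker PTPRC at or near 0. CFTR RNA was still counted in CF PDEs, at 2.50, 8.69, 11.1 and 11.4 CPM on day 2, 5, 7 and 9 against 6.57, 16.9, 15.9 and 29.5 CPM in WT PDEs, lower in CF on each day. The study's methods describe these knockout ferrets as making no CFTR mRNA. The UMIs show only that RNA was assigned to the gene in CF PDEs, and whether it was intact CFTR mRNA was not tested. Where the gene is disrupted was not given in the sources used here, so CF stands throughout for libraries labelled CFTR KO/KO. Differences are given as log2(CPM + 1) in CF minus that in WT, which makes the change of a gene near 1 CPM look smaller than it is, and a gene is called when this difference reaches 2-fold.

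Of the ligands, TGFB2 was far lower in CF PDEs on every day, while the sign of the difference turned with the day for TGFB1 and for the activin subunit gene INHBA. For INHBA the turn was not seen when CF clusters 11 and 23, which had the highest INHBA levels, were left out of CF alone. TGFB2 encodes one of the TGF-beta isoforms. It was at 18.0, 45.8, 42.6 and 73.4 CPM on day 2, 5, 7 and 9 in WT PDEs and at 0.147, 1.05, 3.92 and 4.46 CPM in CF PDEs. The lowest WT library was thus above the highest CF library, and within each genotype the level was higher on day 9 than on day 2. The CF minus WT differences were -4.05, -4.51, -3.15 and -3.77, which on day 9 was 16.5-fold (95% interval 14.4 to 18.9) lower in CF. The CF values rest on only 15, 75, 136 and 223 UMIs.

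TGFB1, which encodes the most widely expressed TGF-beta isoform, was at 40.0, 119.9, 103 and 98.3 CPM in WT and 46.3, 56.1, 91.8 and 94.9 CPM in CF PDEs on the 4 days. WT PDEs had most of their increase by day 5 and CF PDEs by day 7, so that the genotypes lay close to each other on day 2, 7 and 9 and apart on day 5. The differences were 0.21, -1.08, -0.16 and -0.050, and the only call was on day 5, when CF was 2.14-fold (95% interval 2.06 to 2.22) lower. CF clusters 11 and 23 held 26.4% and 29.7% of the CF TGFB1 UMIs on day 7 and 9. With these clusters left out of CF alone, the differences of day 7 and 9 were -0.42 and -0.35, not called.

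INHBA encodes the beta A chain of activin A, a ligand that uses the same SMADs as TGF-beta. It was at 1.04, 22.2, 5.85 and 13.4 CPM in WT and 0.537, 0.937, 12.0 and 20.1 CPM in CF PDEs. WT PDEs peaked on day 5, when CF PDEs had 67 UMIs in all, whereas the highest CF library was day 9. The differences were -0.41, -3.58, 0.93 and 0.55, with a call on day 5 alone. Without CF clusters 11 and 23, described further on, they were -0.54, -3.62, -1.16 and -1.35, lower in CF on each day. These clusters were chosen after the data were seen and were left out of CF alone. They had the highest INHBA levels in CF, so leaving them out could only lower the CF value. WT PDEs kept clusters 2, 5 and 14, which held 84.8% of their INHBA UMIs, so the 2 sides were not treated alike. With equal weight for each class the day 9 difference was -0.32.

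Of the 2 genes tied to latency and activation, neither was abundant. LTBP2 encodes a matrix protein of the latent TGF-beta binding protein family that, unlike its relatives, is not known to bind latent TGF-beta. It was at 4.45, 1.65, 1.47 and 1.05 CPM in WT and 0.743, 2.31, 2.02 and 1.36 CPM in CF PDEs. The WT day 2 library stood above the other 7, and the other 7 lay within 0.743 to 2.31 CPM. The differences were -1.65, 0.32, 0.29 and 0.20, and day 2 alone was called, with 76 CF UMIs.

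THBS1 encodes thrombospondin-1, a matricellular protein that can free TGF-beta from its latent complex. It was sparsely counted, at 0.262, 0.385, 0.229 and 0.543 CPM in WT and 0.0782, 0.434, 1.67 and 1.76 CPM in CF PDEs, from 30, 39, 19 and 46 WT and 8, 31, 58 and 88 CF UMIs. The CF day 7 and day 9 libraries lay above the rest, and the differences were -0.23, 0.049, 1.12 and 0.84, with a call on day 7. That call was lost without CF clusters 11 and 23, which held 43.1% of the day 7 CF UMIs of THBS1 and left a difference of 0.76, and also with a pseudocount of 5 CPM or with equal weight for each cell or each class. In the ductal class, with every cluster of that deposited name, the day 7 difference was -0.12. THBS1 overlaps the annotated non-coding genes LOC123388287 and LOC123388286 in the RefSeq table of the assembly ASM1176430v1.1, which had 0 to 5 UMIs in each library, so how its reads were assigned is uncertain. The other 8 genes overlap no neighbour in that table. The study counted reads with an improved ferret annotation, which may place genes otherwise than that table.

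The targets did not move together. TGFBI, a secreted matrix protein named for its induction by TGF-beta, was at 139, 265, 196 and 166 CPM in WT and 9.26, 16.8, 35.7 and 29.7 CPM in CF PDEs. As with TGFB2, the lowest WT library was above the highest CF library. The differences were -3.77, -3.90, -2.42 and -2.44, that is 15.8-fold (95% interval 14.9 to 16.7) lower in CF on day 5 and 5.58-fold (95% interval 5.29 to 5.89) lower on day 9. From day 2 to day 9 it changed by 1.58 on the log2 scale in CF and by 0.26 in WT PDEs. A TGFBI UMI was found in 30.9, 34.6, 30.5 and 21.3% of the cells in the WT libraries and 2.40, 3.62, 7.94 and 6.05% of those in the CF libraries when every cell was thinned to 3000 UMIs. Without thinning, WT libraries had it in 69.6, 51.4, 47.2 and 36.7% of cells, against 10.5, 15.4, 17.7 and 16.1% for CF. For TGFB2 the WT shares were 4.93, 13.5, 11.8 and 18.7% after thinning and 25.2, 39.7, 41.2 and 49.2% before it, and the CF shares 0.0448, 0.407, 1.17 and 1.28% after and 0.333, 2.40, 6.29 and 6.75% before, so both genes were found in fewer CF than WT cells at equal depth. Thinning left out 80, 150, 73 and 136 WT and 39, 45, 411 and 224 CF cells under 3000 UMIs. No cell type in these cultures is known to lack either gene, so the part of free RNA in the shares was not tested.

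CCN1 and CCN2 encode matricellular proteins, and both are induced by TGF-beta and by YAP and TAZ. CCN1 was at 233, 328, 379.8 and 569.6 CPM in WT and 121, 248, 369 and 367 CPM in CF PDEs, and CCN2 was at 180.3, 472, 566 and 836 and 290.4, 919, 1464 and 1268 CPM. The 2 genes leaned in opposite directions on all 4 days. CCN1 differed by -0.95, -0.40, -0.043 and -0.63, lower in CF each day with no call. CCN2 differed by 0.68, 0.96, 1.37 and 0.60, higher in CF each day with a call on day 7, when it was 2.59-fold (95% interval 2.55 to 2.62) the WT level. With TMM scaling the day 5 difference became 1.03 and the day 7 difference 1.22. When each deposited class had equal weight, the day 7 difference was 0.86 and no longer called. Both genes rose with time in both genotypes, CCN2 by 2.21 in WT and 2.12 in CF PDEs from day 2 to day 9 and CCN1 by 1.28 and 1.60. CCN1 is also an immediate early gene, and 12 genes known to respond to tissue dissociation summed to 6820.0, 6728, 6706 and 6241 CPM in WT and 5149, 5179, 4479.9 and 3619 CPM in CF PDEs, lower in CF on each day. Their part in the CCN1 result was not tested.

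SKIL encodes SnoN, a corepressor that binds SMADs and is itself induced by TGF-beta, which closes a negative feedback loop. It was at 95.1, 225, 195 and 221 CPM in WT and 266, 368, 380.0 and 369 CPM in CF PDEs. Every CF library was above every WT library. The differences were 1.47, 0.71, 0.96 and 0.74, called on day 2 only, when CF was 2.80-fold (95% interval 2.74 to 2.86) the WT level.

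**Figure D1:**
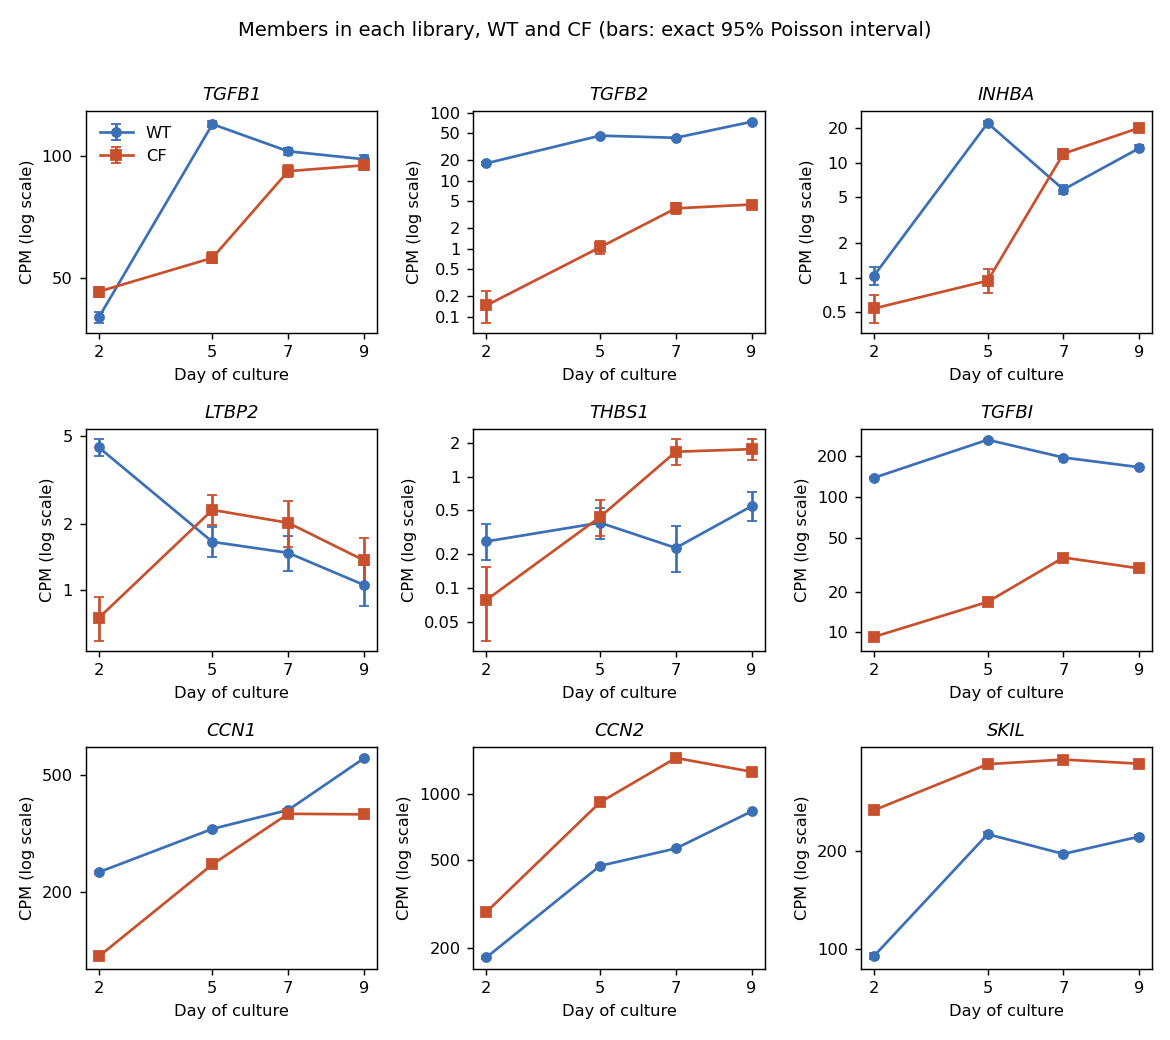
Level of each gene in CPM (log axis, scaled separately for each gene) against the day of culture in WT (blue circles) and CF (red squares) libraries, 1 library per point with its exact 95% Poisson interval. The WT and CF lines do not meet for TGFB2, TGFBI, CCN2 and SKIL, cross between days for INHBA, LTBP2, THBS1 and TGFB1, and come together for CCN1 on day 7.

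Counted together, 1 of the 9 genes was at least 2-fold higher in CF PDEs on day 2 (SKIL) and 3 were lower (LTBP2, TGFB2 and TGFBI). Of the 15921 genes, 3.59% and 3.83% were called higher and lower that day. On day 5 none was higher and 4 were lower (TGFB1, TGFB2, INHBA and TGFBI), beside 2.15% and 4.13% of all genes. On day 7 CCN2 and THBS1 were higher and TGFB2 and TGFBI lower, beside 4.47% and 2.95%. On day 9 none was higher and TGFB2 and TGFBI were lower, beside 3.23% and 3.42%. TGFB2 and TGFBI were thus called lower on all 4 days, as were 1.31% of all genes, and these same 2 were lower on day 2, 5 and 9 without the uneven day 7. None of the 9 was called higher on all 4 days, beside 0.98% of all genes. By any amount, CCN2 and SKIL were higher on all 4 days, beside 23.3%, and TGFBI, TGFB2 and CCN1 lower, beside 18.7%.

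Most of these genes were higher on day 9 than on day 2 in WT PDEs, and in CF PDEs the count depended on the setting. From day 2 to day 9, 6 genes rose at least 2-fold in WT PDEs (CCN1, CCN2, INHBA, TGFB1, TGFB2 and SKIL), beside 7.36% of all genes, and LTBP2 fell by 1.41 on the log2 scale, beside 4.77% of all genes lower. The fall of LTBP2 was no longer called with a pseudocount of 5 CPM or equal weight for each class. In CF PDEs 7 rose (TGFBI, CCN1, CCN2, INHBA, THBS1, TGFB1 and TGFB2), beside 6.04%. Only 4 rose in CF PDEs with a pseudocount of 5 CPM or with equal weight for each class, and 3 in the ductal class. Both class settings used every cluster under its deposited class name. Of the 7, TGFB1 was at the margin, with a change of 1.02 that became 0.79 with TMM scaling. No gene fell in CF PDEs, beside 2.5% of all genes. The steps differed in time. In WT PDEs 5 genes rose between day 2 and day 5 (CCN2, INHBA, TGFB1, TGFB2 and SKIL) and LTBP2 fell, beside 4.24% and 1.21% of all genes. INHBA then fell by 1.76 on the log2 scale between day 5 and day 7 and rose by 1.07 between day 7 and day 9, the only call at either step. The shares of all genes were 0.17% higher and 0.502% lower at the first of these steps and 1.07% and 0.867% at the other. In CF PDEs CCN1 and CCN2 rose between day 2 and day 5, by 1.03 and 1.66, beside 1.53% of all genes higher and 0.433% lower. TGFBI, INHBA and TGFB2 rose between day 5 and day 7, by 1.04, 2.75 and 1.26, beside 1.81% higher and 0.408% lower. Without CF clusters 11 and 23 INHBA went from 0.882 to 2.06 CPM and TGFB2 from 1.05 to 2.74 CPM between these days, changes of 0.70 and 0.87 that were no longer called, and TGFBI changed by 1.18. No gene was called between day 7 and day 9, beside 0.126% and 0.119%. The same libraries enter several of these comparisons.

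The rest of the pathway was described by 7 lists that together had 74 genes with at least 30 UMIs. These lists hold none of the 9 genes. On day 2, 5, 7 and 9, 13, 4, 15 and 11 of the 74 were called higher in CF PDEs and 3, 9, 2 and 3 were lower, and the median differences were 0.22, -0.046, 0.47 and 0.32, beside medians of -0.0048, -0.040, 0.095 and 0.061 over all genes. Of all genes, 3.59%, 2.15%, 4.47% and 3.23% were called higher on these days and 3.83%, 4.13%, 2.95% and 3.42% lower, and the shares of the 74 were 17.6%, 5.41%, 20.3% and 14.9% higher and 4.05%, 12.2%, 2.70% and 4.05% lower. On day 5 the lower calls outnumbered the higher ones and on the other days the reverse held. On day 2, 7 and 9 the summed fibroblast or stellate markers were also higher in CF than in WT PDEs. On day 7 and 9 they summed to 5.80 and 7.53 CPM in WT and 56.7 and 31.5 CPM in CF PDEs, and the other days are given further on. The part of such cells in the calls was not tested. CF cluster 11 carried most of these markers, and CF cluster 23 mainly COL1A1. Without both clusters, 10, 4, 8 and 8 of the 74 were called higher and 4, 9, 2 and 3 lower on the 4 days. The shares of all genes were then 3.54%, 2.15%, 4.13% and 2.85% higher and 3.86%, 4.15%, 3.06% and 3.64% lower. The medians of the 74 were then 0.13, -0.046, 0.24 and 0.14. FN1, TAGLN and COL4A1, which encode fibronectin, transgelin and a chain of basement membrane collagen, were among the genes that lost their day 7 call. Their differences went from 2.11, 2.21 and 1.65 to 0.15, 0.34 and -0.025. These 3 genes were chosen after their values were seen. On day 9 COL4A1 stayed called, at 2.19, while FN1 and TAGLN were at 0.16 and -0.058. On day 5 FN1, TAGLN and COL4A1 were lower in CF, at -5.24, -3.08 and -2.62 with all cells. Without the clusters they were at -5.31, -3.20 and -2.62 that day. On day 2 they were at 1.93, 1.07 and -0.51 with all cells and at 0.28, 0.13 and -1.12 without the clusters. The other genes that lost the day 7 call ended at 0.999 (COL1A1), 0.97 (TGFBR1), 0.96 (CRIM1), 0.94 (F3), 0.90 (PMEPA1) and 0.71 (ITGB1). KLF10 (1.00) and TGFBR3 (1.05) gained a call that day. Of the 10 other ligands and antagonists, 1, 2, 2 and 3 higher and 1, 1, 0 and 0 lower were called on the 4 days. Of the 15 genes of latency and activation these were 4, 0, 2 and 1 higher and 1, 3, 2 and 3 lower. Of the 8 receptors 1 was higher on each day and none lower, and of the 5 SMADs and partners none was called on any day. The 10 feedback inhibitors beside SKIL had 1, 0, 3 and 2 higher and 0, 0, 0 and 0 lower. The 16 other targets had 5, 1, 4 and 4 higher and 0, 4, 0 and 0 lower, and the 10 targets shared with YAP and TAZ had 1, 0, 3 and 0 higher and 1, 1, 0 and 0 lower. Of these lists, COL1A1 and DCN are also fibroblast markers. With all cells, only BGN and MMP14 were called in the same direction on all 4 days, and both were also called on each day without CF clusters 11 and 23. Without these clusters the receptor gene TGFBR3 was called higher on each day too, at 1.37, 1.23, 1.05 and 1.21. BGN encodes biglycan, a small proteoglycan that binds TGF-beta, and was at 147, 172, 167 and 177 CPM in WT and 339, 422, 427 and 400.4 CPM in CF PDEs, with differences of 1.20, 1.29, 1.35 and 1.17. MMP14 encodes a membrane-bound metalloproteinase that can free latent TGF-beta. It was at 30.4, 28.9, 27.8 and 23.6 CPM in WT PDEs and at 0.117, 0.0140, 0.115 and 0.0800 CPM in CF PDEs, from 12, 1, 4 and 4 CF UMIs, with differences of -4.81, -4.88, -4.69 and -4.51. Its ratio of CF to WT CPM on day 5 was 0.000484 (95% interval 1.23e-05 to 0.00270). Like TGFB2 and TGFBI it was thus low in CF PDEs throughout.

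The deposited table gives each cell 1 of 6 class names and a cluster number. WT and CF cells had been clustered and named separately, so different clusters hold a class in each genotype, and the comparison within a class used 58 of the 71 clusters. Left out were 7 clusters of shallow cells and 6 in which genes of another class led. Among the clusters used, on day 9 WT clusters 8, 17 and 2 and CF clusters 26, 29 and 12 held the most ductal cells, and WT clusters 3, 7 and 16 and CF clusters 3, 7 and 11 the most centroacinar cells. Within classes, the ligands parted further. Ductal cells of CF PDEs had less TGFB1 and INHBA than those of WT PDEs from day 5 on, whereas centroacinar cells of CF PDEs had more INHBA on day 7 and 9 and more TGFB1 on day 9. In the ductal class TGFB1 was at 41.9, 159, 144 and 167 CPM in WT and 55.2, 43.1, 57.9 and 46.2 CPM in CF PDEs on the 4 days, with differences of 0.39, -1.86, -1.29 and -1.83. INHBA there was at 1.24, 36.1, 10.2 and 29.8 CPM in WT and 0.362, 0.135, 0.706 and 0.840 CPM in CF PDEs, with differences of -0.72, -5.03, -2.72 and -4.07. The INHBA UMIs of CF ductal cells were 14, 2, 2 and 1, so that the ratio of CF to WT CPM on day 5 was 0.00373 (95% interval 0.000451 to 0.0135), on day 7 0.0691 (95% interval 0.00834 to 0.251) and on day 9 0.0282 (95% interval 0.000712 to 0.157). The CF ductal values of day 7 and 9 come from only 88 and 51 cells. In the centroacinar class, which had enough cells in both genotypes from day 5, INHBA was at 1.30, 2.58 and 2.71 CPM in WT and 1.44, 19.5 and 23.3 CPM in CF PDEs on day 5, 7 and 9, with differences of 0.084, 2.52 and 2.71. TGFB1 there was at 94.3, 119 and 53.3 CPM in WT and 80.7, 134 and 112 CPM in CF PDEs, with differences of -0.22, 0.16 and 1.06. Most of the INHBA excess came from 1 cluster. Without CF cluster 11 the CF centroacinar level of INHBA was 3.09 and 5.43 CPM on day 7 and 9 and the differences 0.19 and 0.79, and that of TGFB1 on day 9 was 0.82, none of them called.

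TGFBI and TGFB2 were lower in CF PDEs in each of the 12 comparisons of a class and a day. For TGFBI the 12 differences ran from -3.85 to -1.25 and for TGFB2 from -5.86 to -2.64. CCN1 was called lower in the ductal class from day 5 on, at 274, 341 and 331 CPM in WT and 132, 151 and 68.1 CPM in CF PDEs, and in the centroacinar progenitor class on all 4 days, at 269, 448, 452 and 589 and 64.6, 93.1, 66.5 and 70.0 CPM. CCN2 was called in the centroacinar class alone, on day 7, with differences there of 0.84, 1.74 and 0.58 on day 5, 7 and 9 against 0.87 on day 2 and 0.22, 0.025 and -0.87 on the later days in the ductal class. In the centroacinar progenitor class CCN2 leaned the other way from the whole libraries, with differences of -0.020, -0.24, -0.63 and -0.79 and no call, although with every cluster of that class day 5 was at 0.057. SKIL differed by 1.00, 1.05 and 0.89 in the centroacinar, by 1.65, 0.56, 0.80 and 1.00 in the ductal and by 0.41, 0.046, 0.19 and 0.59 in the centroacinar progenitor class. 

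Calls within classes were as follows. On day 5, 7 and 9, 5 of the 9 genes were called lower in the ductal class (TGFBI, CCN1, INHBA, TGFB1 and TGFB2), beside 5.68%, 7.61% and 10.6% of all genes. In the centroacinar class TGFBI and TGFB2 were called lower, beside 5.5%, 4.52% and 5.58%. Called higher there were CCN2, INHBA, THBS1 and SKIL on day 7 and INHBA and TGFB1 on day 9, beside 6.87% and 8.5%. Without CF cluster 11 the genes called higher in the centroacinar class were CCN2, THBS1, LTBP2 and SKIL on day 7 and none on day 9. In the centroacinar progenitor class TGFBI, CCN1, TGFB1 and TGFB2 were called lower on each day and none higher, beside 3.33%, 4.79%, 4.62% and 5.77% of all genes lower and 6.01%, 5.5%, 7.15% and 6.3% higher. On day 2 SKIL was called higher in the ductal and the Prolif_acinar class, beside 2.98% and 4.57%. TGFBI, LTBP2 and TGFB2 were called lower that day in both, with CCN1 in the Prolif_acinar class, beside 2.95% and 3.76%. In the ductal class none was called higher on day 5 and 7 and SKIL on day 9, at a difference just past 2-fold, beside 3.19%, 4.53% and 5.19%. None was called higher in the centroacinar class on day 5, beside 6.8%. With every cluster under its deposited name, SKIL in the ductal class on day 9 lost its call, at 0.40, and TGFB1 in the progenitor class on day 5 did too, at -0.81. Under the same names the centroacinar class gained calls just past 2-fold, all higher in CF, for SKIL on day 5 (1.02), LTBP2 on day 7 (1.00) and THBS1 on day 9 (1.01).

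**Figure D2:**
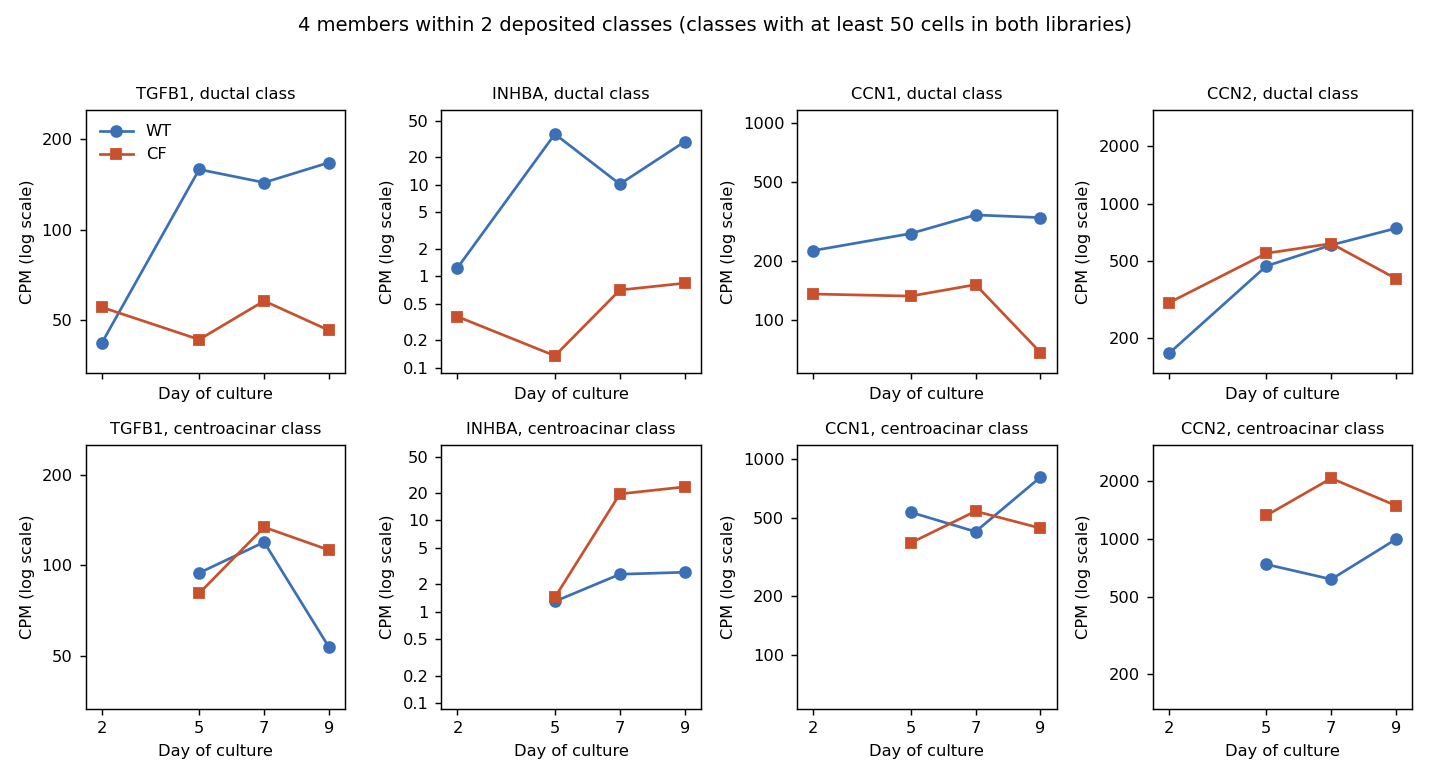
CPM (log axis, shared by the panels of a gene) of TGFB1, INHBA, CCN1 and CCN2 against the day of culture in ductal (top) and centroacinar (bottom) cells of WT (blue circles) and CF (red squares) libraries, in clusters kept under their name. For TGFB1 and INHBA the WT line lies above the CF line in ductal cells from day 5 on, and the order is the opposite in centroacinar cells on day 9.

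The 36 WT and 29 CF clusters of at least 100 cells showed where each gene was read. The clusters were made from the same cells and genes, so these levels are a description, and shallow clusters are included. WT clusters are called SOX2-high where the foregut transcription factor SOX2 was at 10 CPM or more (29 of 41) and SOX2-low otherwise (12 of 41), a split taken up further on. In WT PDEs TGFBI, INHBA and TGFB1 shared the same ductal clusters. TGFBI was highest in WT clusters 20, 2 and 23, at 1445, 1109.6 and 960.5 CPM, and lowest in cluster 33, at 5.53 CPM. TGFB1 was highest in the same clusters, at 552, 357 and 403 CPM, and lowest in cluster 17, at 10.1 CPM. INHBA was highest in clusters 2, 20 and 5, at 158, 50.9 and 30.7 CPM, and had no UMI in clusters 33 and 35. Clusters 2, 5 and 14 held 84.8% of the INHBA UMIs and 52.3% of the TGFBI UMIs of WT PDEs in 12.6% of the cells. Cells of cluster 20 were shallow, with a median of 3398 UMIs. TGFB2 and CCN1 peaked elsewhere, in centroacinar clusters 7, 16 and 3. TGFB2 was at 147, 138 and 118 CPM there and lowest in cluster 19, at 0.853 CPM. CCN1 was at 719, 1263 and 759.7 CPM there and lowest in cluster 23, at 133 CPM. CCN2 was high in both places, at 1290.3, 972 and 920.3 CPM in clusters 16, 3 and 2.

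In CF PDEs the pattern was another one. INHBA, TGFB1, CCN1 and THBS1 were high together in clusters deposited as centroacinar, and TGFBI peaked in another centroacinar cluster, 14, and in ductal cluster 26. INHBA was highest in CF clusters 23, 11 and 27, at 117, 107 and 24.8 CPM, and clusters 11, 3 and 23 held 87.3% of its UMIs in 11.3% of the cells. TGFB1 was highest in clusters 23, 11 and 3, at 263, 209.7 and 188 CPM, and lowest in progenitor cluster 17, at 7.58 CPM. THBS1 was highest in clusters 27, 23 and 11, at 9.70, 8.72 and 5.32 CPM. TGFBI was highest in clusters 14, 26 and 13, at 207, 150.2 and 47.0 CPM, and only 7.20 CPM in cluster 11. Clusters 14, 26 and 10 held 59.9% of the TGFBI UMIs of CF PDEs in 8.47% of the cells. The few TGFB2 UMIs of CF PDEs lay mostly in clusters 11, 14 and 3, with 64.4% of them and a highest level of 14.1 CPM in cluster 11. CCN1 was highest in clusters 11, 3 and 27, at 677, 643 and 605 CPM. CCN2 was highest in clusters 27, 16 and 11, at 2800.4, 2293 and 2083 CPM, and lowest in ductal cluster 22, at 139 CPM. SKIL ran from 101 CPM in progenitor cluster 4 to 754 CPM in cluster 27, followed by clusters 16 and 14. Clusters 13, 23 and 27 were shallow, with medians of 1018, 3246 and 4718 UMIs, and were not kept under a class name.

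**Figure D3:**
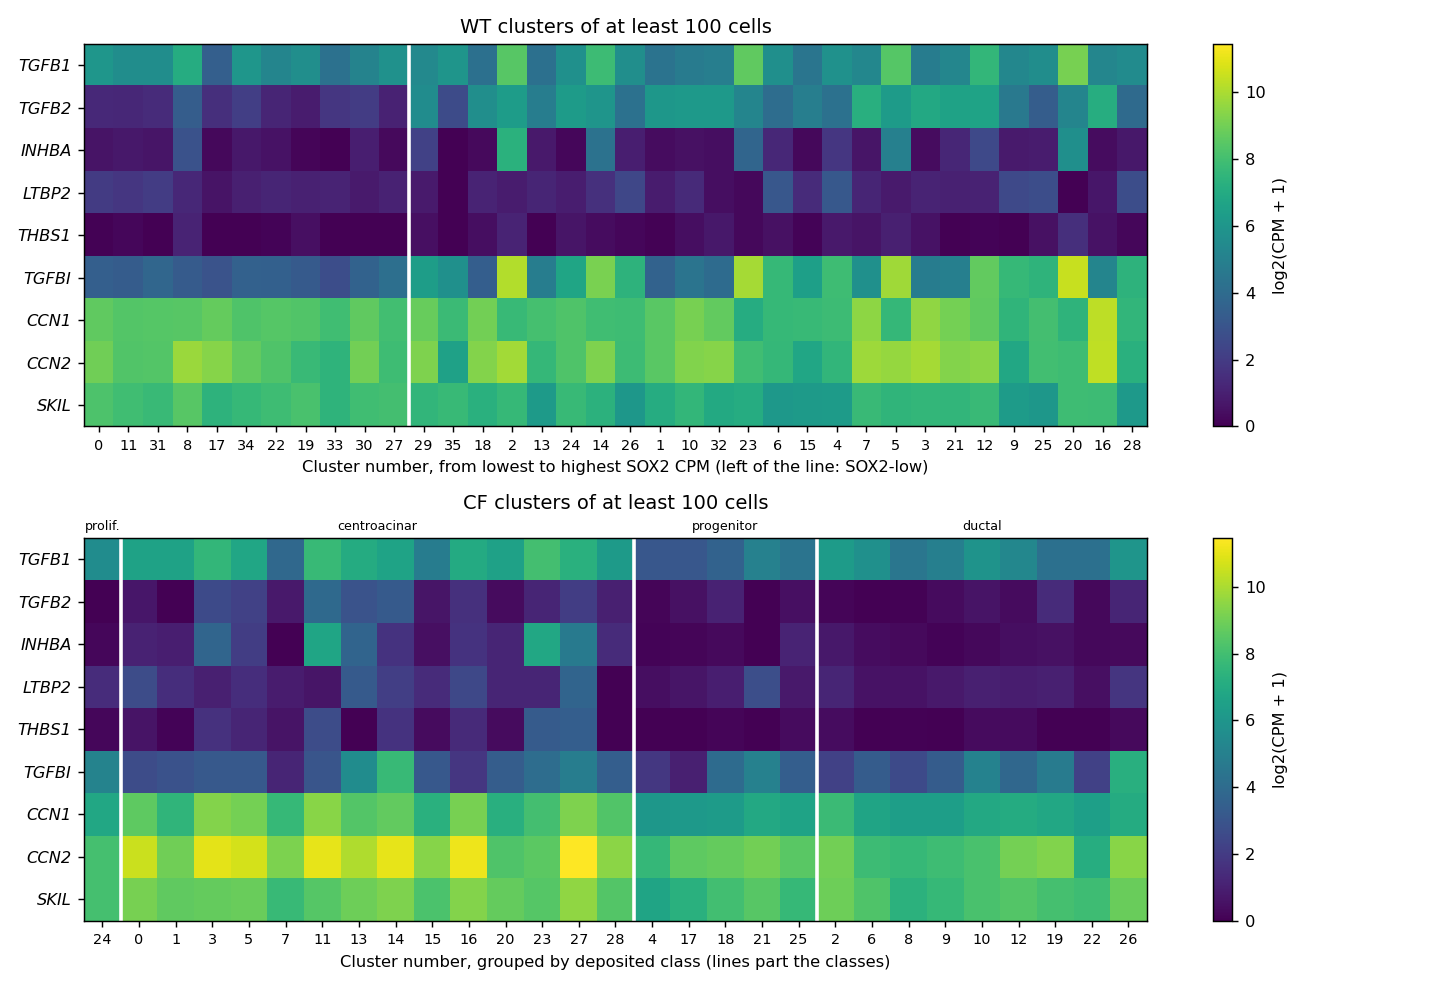
Level of each gene as log2(CPM + 1) (colour) in the 36 WT (top) and 29 CF (bottom) clusters of at least 100 cells, WT clusters ordered by their SOX2 level and CF clusters grouped by deposited class. The INHBA row is bright with TGFB1 and TGFBI in WT clusters 2, 5 and 20 and with TGFB1 but not TGFBI in CF clusters 11 and 23, and the TGFB2 row is dark in SOX2-low WT and in CF clusters.

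CF cluster 11 also carried fibroblast or stellate markers. The 10 markers of that list summed to 377 CPM in cluster 11 and 122 CPM in cluster 23, against 3.14 CPM in the other CF clusters. In cluster 11, COL1A1 was at 140.5 and ACTA2 at 129 CPM and DES was at 0. In cluster 23, COL1A1 was at 101 and ACTA2 at 1.25 CPM, and 5 of the 10 markers were at 0. Both clusters kept epithelial RNA, with KRT19 at 3483 and 2911 CPM and EPCAM at 190.3 and 67.3 CPM. Over the libraries the list summed to 3.12, 5.60, 5.80 and 7.53 CPM in WT and 9.96, 1.89, 56.7 and 31.5 CPM in CF PDEs on the 4 days. The clusters were 0.445%, 0.291%, 9.96% and 16.8% of CF cells on day 2, 5, 7 and 9. Without them INHBA was at 0.401, 0.882, 2.06 and 4.64 CPM in CF PDEs. With no WT cluster left out, its differences from WT were then -0.54, -3.62, -1.16 and -1.35. These clusters had the highest INHBA levels in CF, so leaving them out of CF alone could only lower the CF value. No calls are counted from these differences. THBS1 then differed by 0.76 on day 7 and was not called. The differences of TGFBI and TGFB2 without these clusters, -2.28 and -4.20 on day 9, remained past 2-fold.

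Ligands and targets were paired differently over the clusters of the 2 genotypes. The values are correlations of log2(CPM + 1) over 36 WT or 29 CF clusters, which share libraries and differ in depth, and they are given as a description. TGFBI and INHBA had Pearson's r of 0.74 (Spearman's rho 0.62) in WT and 0.13 (0.18) in CF PDEs. TGFBI and TGFB1 had 0.74 (0.53) and 0.32 (0.26). The ligand TGFB1 and the target CCN1 had r of opposite sign, -0.46 (-0.50) in WT and 0.82 (0.87) in CF PDEs. INHBA and TGFB1 were alike in both, with 0.86 (0.58) and 0.74 (0.84), as were CCN1 and CCN2, with 0.70 (0.68) and 0.90 (0.86). Whether any of these differed between the genotypes was not tested.

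CCN1 and CCN2 went up and down together over clusters, but at another ratio in CF PDEs. A ratio of UMIs of 2 genes does not depend on how a library is scaled, though it does not compare their levels per length. The UMIs of CCN2 over those of CCN1 were 0.773, 1.44, 1.49 and 1.47 in the WT libraries of day 2, 5, 7 and 9 and 2.41, 3.70, 3.97 and 3.45 in the CF libraries, so that every CF library was above every WT library. Over clusters the ratio had a median of 3.18 in CF (range 1.42 to 5.60), 1.14 in SOX2-high WT (0.414 to 4.38) and 0.984 in SOX2-low WT clusters (0.674 to 2.35). CCN2 had more UMIs than CCN1 in 29 of 29 CF clusters, 15 of 25 SOX2-high and 5 of 11 SOX2-low WT clusters. The ranges overlap, and WT clusters 2 and 5 had the highest WT ratios.

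**Figure D4:**
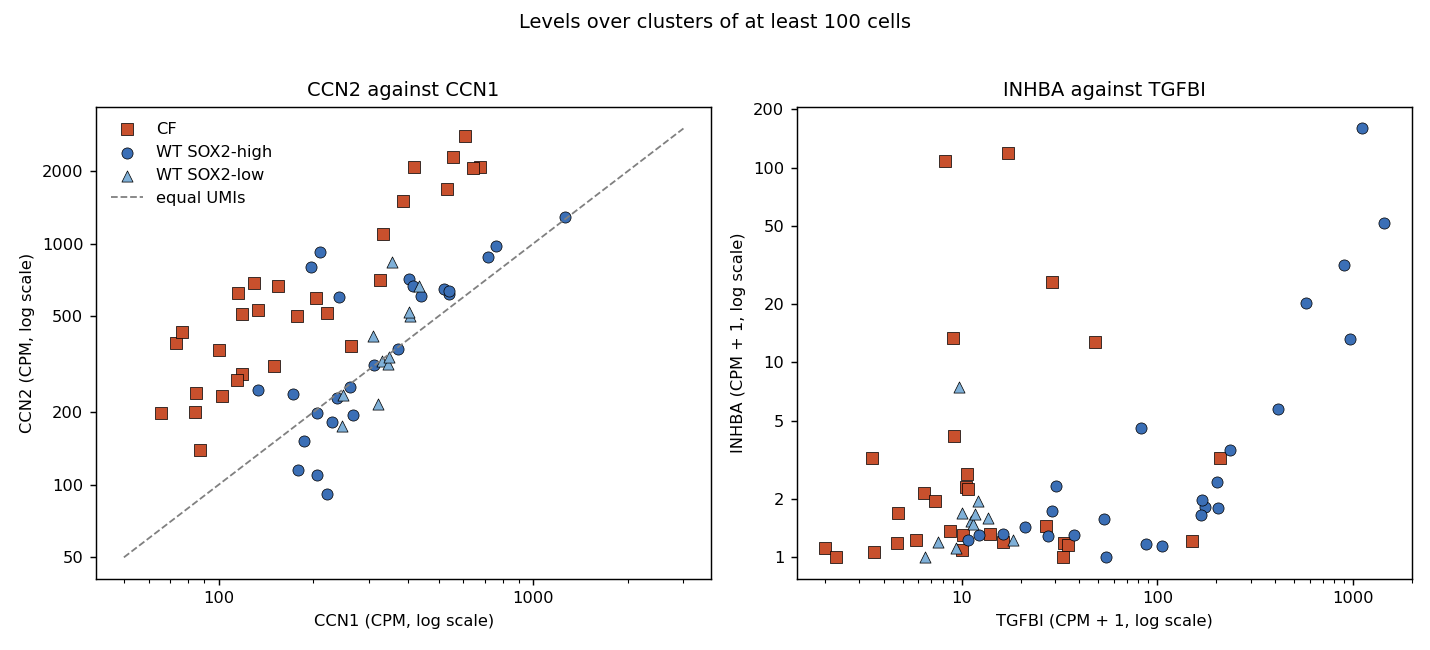
CPM of CCN2 against CCN1 (left, log axes, dashed line where UMIs are equal) and CPM + 1 of INHBA against TGFBI (right, log axes) in clusters of at least 100 cells, 1 point per cluster, for CF (red squares), SOX2-high WT (dark blue circles) and SOX2-low WT (light blue triangles) clusters. All CF points lie above the dashed line, and the 2 CF clusters with the most INHBA lie far to the left of the WT clusters with the most INHBA.

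SOX2 was at 68.5 to 115 CPM in WT and at most 0.0864 CPM in CF libraries and in no CF cluster of at least 100 cells was it above 1.08 CPM. Pooled over each set of WT cells, TGFB2 and TGFBI were far lower in the SOX2-low set. TGFB2 was at 20.5, 83.4, 64.2 and 103 CPM in SOX2-high WT cells on day 2, 5, 7 and 9 and at 0.953, 1.44, 1.71 and 6.39 CPM in SOX2-low WT cells. TGFBI was at 158, 479, 294 and 234 CPM in SOX2-high and 7.63, 11.2, 9.64 and 10.0 CPM in SOX2-low WT cells. The SOX2-low cells thus had 4.66, 1.73, 2.67 and 6.22% of the TGFB2 level and 4.83, 2.34, 3.28 and 4.28% of the TGFBI level of the SOX2-high cells, and for SOX2 itself, which chose the cells, the share was 2.97, 0.754, 1.79 and 1.71%. SKIL was the other way round, at 73.1, 193, 174 and 184 CPM in SOX2-high and 245, 262, 236 and 304 CPM in SOX2-low cells. Single clusters of the sets overlapped for both genes. TGFBI ran from 9.84 to 1445 CPM over SOX2-high and from 5.53 to 17.3 CPM over SOX2-low clusters, and clusters 2, 5 and 14 held 53.1% of the TGFBI UMIs of the SOX2-high set in 16.8% of its cells. TGFB2 ran from 5.08 to 147 CPM over SOX2-high and from 0.853 to 9.38 CPM over SOX2-low clusters. How much free RNA adds to the low levels was not tested.

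Set against SOX2-low WT cells only, TGFBI and TGFB2 were not called lower in CF PDEs on any day. The SOX2-low set had 892, 1801, 1276 and 1510 cells on day 2, 5, 7 and 9. Over all days, ductal clusters 0, 8 and 11 held 49.0% of its cells. Classes were not matched between the 2 sides, and their part in these differences was not tested. TGFB2 differed by -0.77, -0.25, 0.86 and -0.44 on the 4 days. On day 2, where both sets were under 1 CPM and the pseudocount hides most of the difference, the ratio of CF to SOX2-low WT CPM was 0.154 (95% interval 0.0692 to 0.344), from 15 and 14 UMIs. TGFBI was higher in CF, by 1.79 and 1.48 on day 7 and 9. SKIL differed by 0.12, 0.49, 0.68 and 0.28, with no call, where its difference from all WT cells had been called on day 2. TGFB1 differed by 0.23, 0.11, 0.92 and 0.13, with no call, where its difference from all WT cells had been called on day 5. INHBA was at 0.409, 0.625, 0.175 and 3.91 CPM in SOX2-low WT cells, the day 7 level from 5 UMIs. It differed by 0.13 and 0.25 on day 2 and 5 and was higher in CF by 3.47 and 2.11 on day 7 and 9. Clusters 11 and 23 held 84.9% and 80.0% of the CF INHBA UMIs of these days, and without them the differences were 1.38 and 0.20, the day 9 one no longer called. CCN2 was higher by 1.64 and 1.45 on day 5 and 7, and its day 9 difference was 0.76. Against SOX2-low cells 4 of the 9 genes were called higher on day 7 (TGFBI, CCN2, INHBA and THBS1) and none lower, beside 5.75% and 2.25% of all genes. THBS1 had 0 UMIs in the SOX2-low cells and 58 in CF PDEs that day. On day 9 TGFBI and INHBA were called higher and none lower, beside 2.65% and 1.58%. On day 5 CCN2 alone was called, higher, beside 3.69% and 2.85%. On day 2 CCN1 alone was called, lower, at -1.34, beside 2.09% higher and 1.65% lower. Against SOX2-high cells SKIL was called higher on day 2 and 7 and CCN2 on day 7, and none on day 5 and 9, beside 4.66%, 6.04%, 4.92% and 5.73% of all genes on day 2, 7, 5 and 9. TGFBI and TGFB2 were called lower on every day, with LTBP2 on day 2 and INHBA and TGFB1 on day 5, beside 4.37%, 6.07%, 3.61% and 4.48% of all genes on day 2, 5, 7 and 9. The CF cells here are the same as in the comparison with all WT cells.

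**Figure D5:**
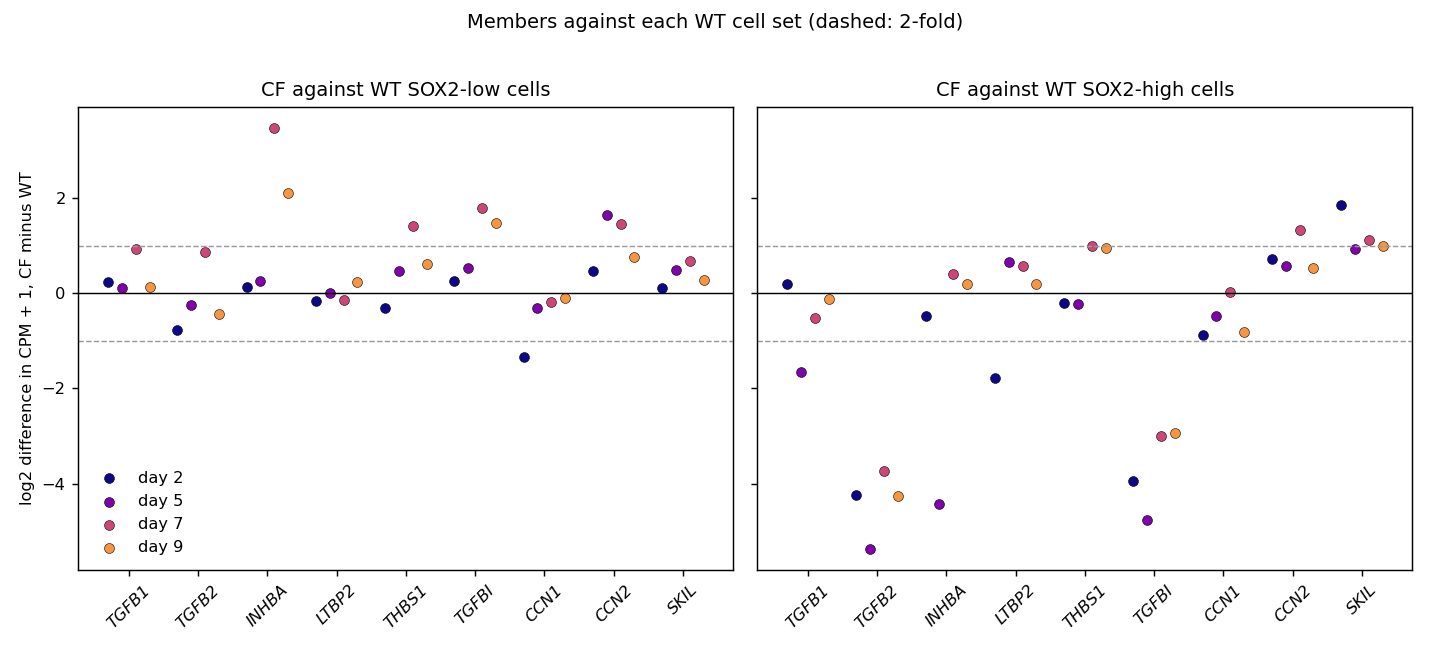
log2 difference in CPM + 1 of CF cells minus SOX2-low WT cells (left) and minus SOX2-high WT cells (right) for each gene, 1 point per day, with dashed lines at 2-fold. TGFB2 and TGFBI lie between -2.94 and -5.36 on the right and between -0.77 and 1.79 on the left.

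The genes whose pattern over clusters was most like that of each gene were, with Pearson's r over the same 36 WT or 29 CF clusters, as follows. They were picked as the highest among 10435 genes in WT or 10517 in CF PDEs, so high values of r owe something to the search. TGFB1 was most like WNT5B (0.96), SBK1 (0.95) and CSF1 (0.95) in WT and WNT5B (0.96), AMOTL1 (0.96) and PDPN (0.96) in CF PDEs, so that WNT5B, a WNT ligand, led in both. TGFB2 was most like SOX21 (0.94), BEND7 (0.94) and ACAT1 (0.93) in WT PDEs, where SOX21 is a relative of SOX2. TGFBI was most like SLCO3A1 (0.96), PYGO1 (0.96) and C1S (0.95) in WT and F5 (0.83), EFEMP1 (0.80) and PID1 (0.76) in CF PDEs. INHBA was most like LOC101687358 (0.95) and VASH2 (0.94) in WT PDEs and in CF PDEs most like UST (0.97), PTGIS (0.97) and COL6A2 (0.97), of which PTGIS makes prostacyclin and COL6A2 is a collagen chain. SKIL was most like PDE4D (0.86), AFAP1 (0.86) and CCDC122 (0.86) in WT and FGFR2 (0.94), KLF10 (0.92) and HSD17B11 (0.91) in CF PDEs, where KLF10 is itself an early TGF-beta target. CCN1 was most like GNAS (0.87), CDC42SE2 (0.87) and MAN2A1 (0.85) in WT and FJX1 (0.96), F3 (0.95) and CDC42EP3 (0.95) in CF PDEs, and CCN2 most like ADAM9 (0.85), ABHD13 (0.81) and TVP23B (0.80) and LOC101691226 (0.91), TSPAN3 (0.91) and EDIL3 (0.91). TGFB2 in CF PDEs was most like SRGN (0.87), CMTM8 (0.86) and IGF1 (0.85), from few UMIs. THBS1 was most like PRKD3 (0.75), STON2 (0.74) and TRIM2 (0.73) in WT and FGFR1 (0.97), TNC (0.95) and PRUNE2 (0.94) in CF PDEs, from only 134 WT and 185 CF UMIs. LTBP2 was most like LOC101684691 (0.86), SFTPB (0.85) and SERPINB6 (0.82) in WT and HIPK3 (0.86), FZD7 (0.86) and CACUL1 (0.86) in CF PDEs, and like THBS1 it was low in every cluster.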

How the data were processed

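Single-cell RNA libraries of WT and CF ferret PDE cultures were analysed, 1 for each genotype and day (2, 5, 7 and 9), grouped by their titles. The authors aligned reads to ASM1176430v1.1 and counted UMIs with Cell Ranger 5.0.1 and an improved annotation of ferret transcripts. They deposited whole UMI counts of 27912 genes in 44243 barcodes with a table of 32945 retained cells, their clusters and classes. Doublets had been removed by the authors with DoubletFinder, and none was called again. The percent of mitochondrial UMIs that the authors deposited for each cell supports no value here. Their normalized table and lineage scores were not used. UMI counts of retained cells were summed per library, class or cluster and scaled to CPM. Differences used a pseudocount of 1 CPM. Intervals were exact Poisson for a sum, exact conditional binomial for a ratio and exact Clopper-Pearson for a share, at 95%, and cover counting error only. With 1 library per group no test was run. A class comparison needed 50 cells in both libraries. The fold and correlation code was tested on simulated data. Scalings came from edgeR 4.0.16 (TMM) and DESeq2 1.42.0, and the rest was run in Python 3.11.15. Reference genome sequence was not used here. The 9 genes, the pathway and marker lists and the SOX2 split were chosen with earlier results of these data known. Genes outside the 9 were named when called in the same direction on all 4 days or among the 3 most like a member over clusters of at least 100 cells, or where a value bore on a result. One of the most alike genes is not reported here. The library totals and the share of cells under 3000 UMIs set the precision, with 3 UMIs equal to 0.0262 to 0.0864 CPM.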

Additional observations from a re-analysis of the deposited data

Results flagged for a closer look

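For 4 of the 9 genes the CF minus WT difference had one sign on some days and the other sign on others. With 1 library per genotype and day the difference between days was not tested. INHBA was at -0.41 and -3.58 on day 2 and 5 and at 0.93 and 0.55 on day 7 and 9. The positive values were lost when CF clusters 11 and 23, those highest in INHBA, were left out of CF alone. Day 7 was then at -1.16 and day 9 at -1.35, with no WT cluster left out. Cluster 11 carried most of the fibroblast markers, and cluster 23 mainly COL1A1. With equal weight for each class the day 9 difference of INHBA was -0.32. Its change from day 5 to day 7 was -1.76 in WT and 2.75 in CF PDEs, each past 2-fold and in opposite directions. Without CF clusters 11 and 23 the CF change was 0.70, which is not past 2-fold. TGFB1 was at 0.21 on day 2, -1.08 on day 5 and -0.16 on day 7, and with equal weight for each class day 2 was at -0.14. LTBP2 was at -1.65 on day 2 and at 0.32 and 0.29 on day 5 and 7. THBS1 was at -0.23 on day 2 and at 1.12 and 0.84 on day 7 and 9, from 319 UMIs in all.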

How the results depend on the processing

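TGFBI and TGFB2 were at least 2-fold lower in CF PDEs on each of the 4 days under all 10 alternatives run. None of these set CF cells against SOX2-low WT cells alone, and in that comparison neither gene was called lower on any day. Of the log2 differences of single genes, 494 of 540 kept their call or lack of one. TMM shifted genes of at least 10 CPM by -0.15 and -0.11 on day 7 and 9 between genotypes, and by -0.12 (WT) and -0.22 (CF) between day 2 and day 9. DESeq2 size factors shifted them by -0.15, -0.098, -0.15 and -0.22. The settings of the ductal class only and of equal weight for each class took every cluster under its deposited class name. Their values therefore differ from those of the class comparison above, which left some clusters out. The causes of the changes below were not tested.

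Counts of the 9 genes that changed by over 1.5 times, or from or to 0, are given below, with the smaller changes on day 5 in the ductal class and in CF from day 2 to day 9. All other changes of these counts were by 1 gene. Higher in CF on day 5 there was 1 with TMM, DESeq2 size factors or equal weight for each cell. On day 7 there was 1 higher with a pseudocount of 5 CPM, without CF clusters 11 and 23 (chosen after seeing the data) or with genes of at least 10 CPM only, and 0 with equal weight for each class or the ductal class only. On day 9 there was 1 higher with a pseudocount of 0.1 CPM. In the ductal class 5 genes were lower on day 5 (4 in the reported count), 5 on day 7 and 5 on day 9. From day 2 to day 9, 0 fell in WT with a pseudocount of 5 CPM, equal weight for each class or genes of at least 10 CPM only. In CF 6 rose with TMM, DESeq2 size factors, all deposited barcodes or without clusters 11 and 23, 5 with genes of at least 10 CPM only, 4 with a pseudocount of 5 CPM or equal weight for each class and 3 in the ductal class. Of the pathway genes, 5 were lower on day 2 and 17 on day 5 with a pseudocount of 0.1 CPM, 1 was higher on day 5 with 5 CPM, and 8 were higher on day 7 without clusters 11 and 23. A called value changed sign only in the ductal class, for THBS1 on day 7 (-0.12) and for the CF change from day 2 to day 9 of CCN1 (-0.079), THBS1 (-0.13) and TGFB1 (-0.85). Differences that were not called also changed sign. In the ductal class these were INHBA on day 7 (-2.91) and day 9 (-4.27), CCN2 on day 9 (-0.42), LTBP2 on day 5 (-0.37) and day 7 (-0.40), and THBS1 on day 5 (-0.25) and day 9 (-0.75). Without clusters 11 and 23 INHBA was at -1.16 on day 7 and -1.35 on day 9. With equal weight for each class they were INHBA on day 9 (-0.32), TGFB1 on day 2 (-0.14) and THBS1 on day 5 (-0.0086), and with equal weight for each cell TGFB1 on day 9 (0.079) and THBS1 on day 5 (-0.029).

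Thinning to fewer UMIs or not at all moved 135 of 144 shares of cells past their interval, and leaving out unnamed clusters moved 53 of 252 class levels. No paired fit was run. The labels number no replicates within a genotype and day, and the 4 days, which could serve as blocks, are conditions of the study.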
